A study of Homo sapiens with 6 samples.

Results

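The subunit genes of the SWI/SNF chromatin remodeling complexes were examined in BT-549 cells silenced for PBRM1, a subunit of one of these complexes. The genes were the 30 members of a given list of BAF, PBAF and ncBAF subunits, and each was found by its symbol among the 37887 rows of the deposited count table. Of these, 27 had enough reads to be tested. BT-549 is an established triple-negative breast cancer (TNBC) cell line. The data are RNA-seq profiles of poly(A) RNA from 3 control libraries (shCTL) and 3 PBRM1-silenced libraries (shPBRM1), each from cells cultured in triplicate. The shCTL libraries are labeled as treated with 0.1% DMSO as vehicle, and the shPBRM1 libraries with 500 ng/ml doxycycline (DOX), the drug that switches on the tet-PBRM1shRNA. The titles call the controls a control shRNA, whereas the design text describes tet-PBRM1shRNA cells throughout, so that all 6 cultures may carry the same vector. What DOX itself did and what the silencing did cannot be told apart, and the profiles rest on a single PBRM1 shRNA.

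SWI/SNF complexes use the energy of ATP to slide or evict nucleosomes, and in this way open chromatin at promoters and enhancers. They come in 3 forms that share a catalytic ATPase and a structural core. BAF carries ARID1A or ARID1B and a DPF protein. PBAF carries ARID2, PBRM1, BRD7 and PHF10 in their place. The smaller ncBAF carries BRD9 with BICRA or BICRAL. Many positions in the complexes can be filled by either of several paralogues, so that the supply of each paralogue helps to set which complexes a cell can build.

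The libraries held between 36429395 and 65096297 counts. Of the receptors that TNBC lacks, ESR1 had at most 2 and PGR at most 12 counts in any library, whereas ERBB2 transcripts were present at 51.3 CPM on average in shCTL. CPM is the count of a gene relative to the total of its library, normalized by the trimmed mean of M-values (TMM). Of the mesenchymal markers, VIM went from 621 CPM in shCTL to 770 CPM in shPBRM1 and CDH2 from 252 to 366 CPM. FN1 fell from 554 to 221 CPM and ZEB1 from 197 to 135 CPM. Of the epithelial markers, EPCAM had at most 8 counts, while CDH1 had 186 to 271 counts in shCTL and 58 to 110 in shPBRM1. The T-cell gene CD3E had no count, while the leukocyte gene PTPRC was at 0.797 CPM in shCTL and 0.132 CPM in shPBRM1 and the monocyte gene CD14 at 0.331 and 0.678 CPM. The endothelial markers CDH5 and PECAM1 had at most 18 counts. PBRM1 itself, read first as a check of the labels, had 5870, 7619 and 8118 counts in shCTL and 2598, 1591 and 2657 counts in shPBRM1. The deeper shPBRM1 libraries thus still held fewer PBRM1 reads than every shCTL library.

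Across the subunit genes, 7 of the 27 tested were lower and 10 were higher in shPBRM1 (adjusted p under 0.05, quasi-likelihood F-test of edgeR). Of all 15450 genes tested, 33.2% were lower and 31.5% were higher, or 64.7% in either direction, so that the 63.0% of subunit genes called is close to the share in the whole profile. The changes were mostly small. Past a fold change of 2 were PBRM1 and SMARCA2, both lower, and no subunit gene was higher by that measure, against 9.68% lower and 2.87% higher of all tested genes. At 1.5-fold, SMARCD3 joined the lower genes and again no subunit gene was higher (16.3% lower and 9.39% higher of all genes). The 27 genes had a median log2 fold change (log2FC) of 0.07, against -0.01 for all tested genes. Values of shCTL and shPBRM1 did not overlap for 20 of the 27 genes, or 74.1%, compared with 68.3% of all tested genes. A fit chosen after seeing the data blocked on the replicate number and corrected each gene for its GC content and length. It gave a larger count of higher genes, 17 with 7 lower. That is 24 of 27 called, compared with 65.7% of all genes in that fit (32.7% higher, 33.0% lower). When a fold change of at least 1.2 was tested (glmTreat), 6 subunit genes were lower and 3 higher, or 9 of 27 called, compared with 39.1% of all genes (21.8% lower, 17.3% higher).

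**Figure D1:**
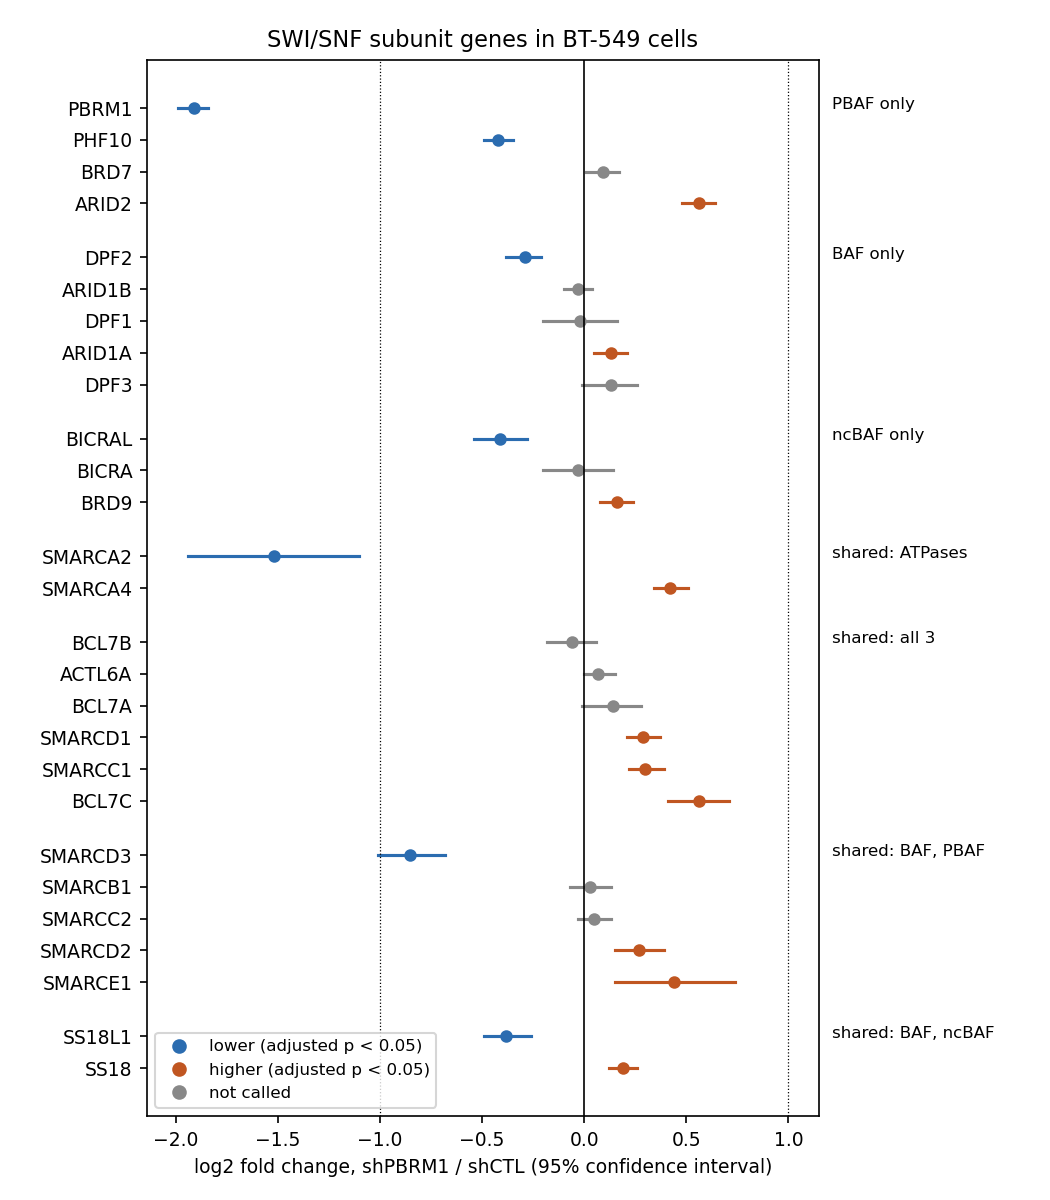
Log2 fold change of the 27 tested subunit genes in shPBRM1 relative to shCTL, with 95% confidence intervals from edgeR's quasi-likelihood fit (n = 3 per group), grouped by the complexes that hold each subunit. Blue points were lower, orange points higher (adjusted p under 0.05) and gray points not called, and the dotted lines mark a fold change of 2, which PBRM1 and SMARCA2 pass.

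Among the PBAF-only subunits, PBRM1 and PHF10 were lower, ARID2 was higher and BRD7 was not called. PBRM1 (polybromo-1, with bromodomains that read acetylated histones), on chromosome 3 from 52545352 to 52685917 in GRCh38, fell from 157.3, 156.7 and 161.0 CPM to 43.3, 40.9 and 41.7 CPM. The groups are far apart, and the shPBRM1 mean was 26.5% of the shCTL mean. The log2FC was -1.91 (standard error, SE, 0.027, adjusted p = 9.98e-23), which places PBRM1 at the 3.89th percentile of all tested genes, so that many other genes fell further in these libraries. ARID2 (the DNA-binding subunit that defines PBAF), on chromosome 12 from 45729665 to 45908040, rose from 70.0, 68.1 and 72.6 CPM to 107.2, 101.7 and 101.8 CPM. This was the largest rise of a subunit gene together with that of BCL7C, with every shPBRM1 library above every shCTL library. Its log2FC was 0.56 (SE 0.037, adjusted p = 3.45e-12), and 147% of the control level was reached.

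PHF10 (the PHD-finger subunit of PBAF), on chromosome 6 from 169703905 to 169725566, stood at 128.6, 127.3 and 129.9 CPM in shCTL and at 96.0, 95.8 and 96.8 CPM in shPBRM1. Its libraries were tightly grouped. The log2FC was -0.42 (SE 0.0095, 95% confidence interval -0.49 to -0.35, adjusted p = 8.01e-11, edgeR). This fall was many times the spread between replicates. BRD7 (a bromodomain subunit of PBAF) had 58.0, 60.5 and 61.9 CPM in shCTL and 65.7, 62.4 and 63.7 CPM in shPBRM1. The shPBRM1 values all lay above the shCTL values, but by little (log2FC 0.09, 95% confidence interval 0.01 to 0.17, adjusted p = 5.59e-02). BRD7 passed the threshold with the replicate number as a block (adjusted p = 4.83e-02, edgeR), and also when shCTL replicate 3 or shPBRM1 replicate 2 was left out (log2FC 0.11 in each case). In the annotation 42.4% of the exon bases of BRD7 lie opposite other genes. These are ADCY7, which was at 0.959 CPM in shCTL, and the antisense gene AC007493.2, which is not among the counted genes. Whether reads were counted by strand is not given in the sources used here.

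**Figure D2:**
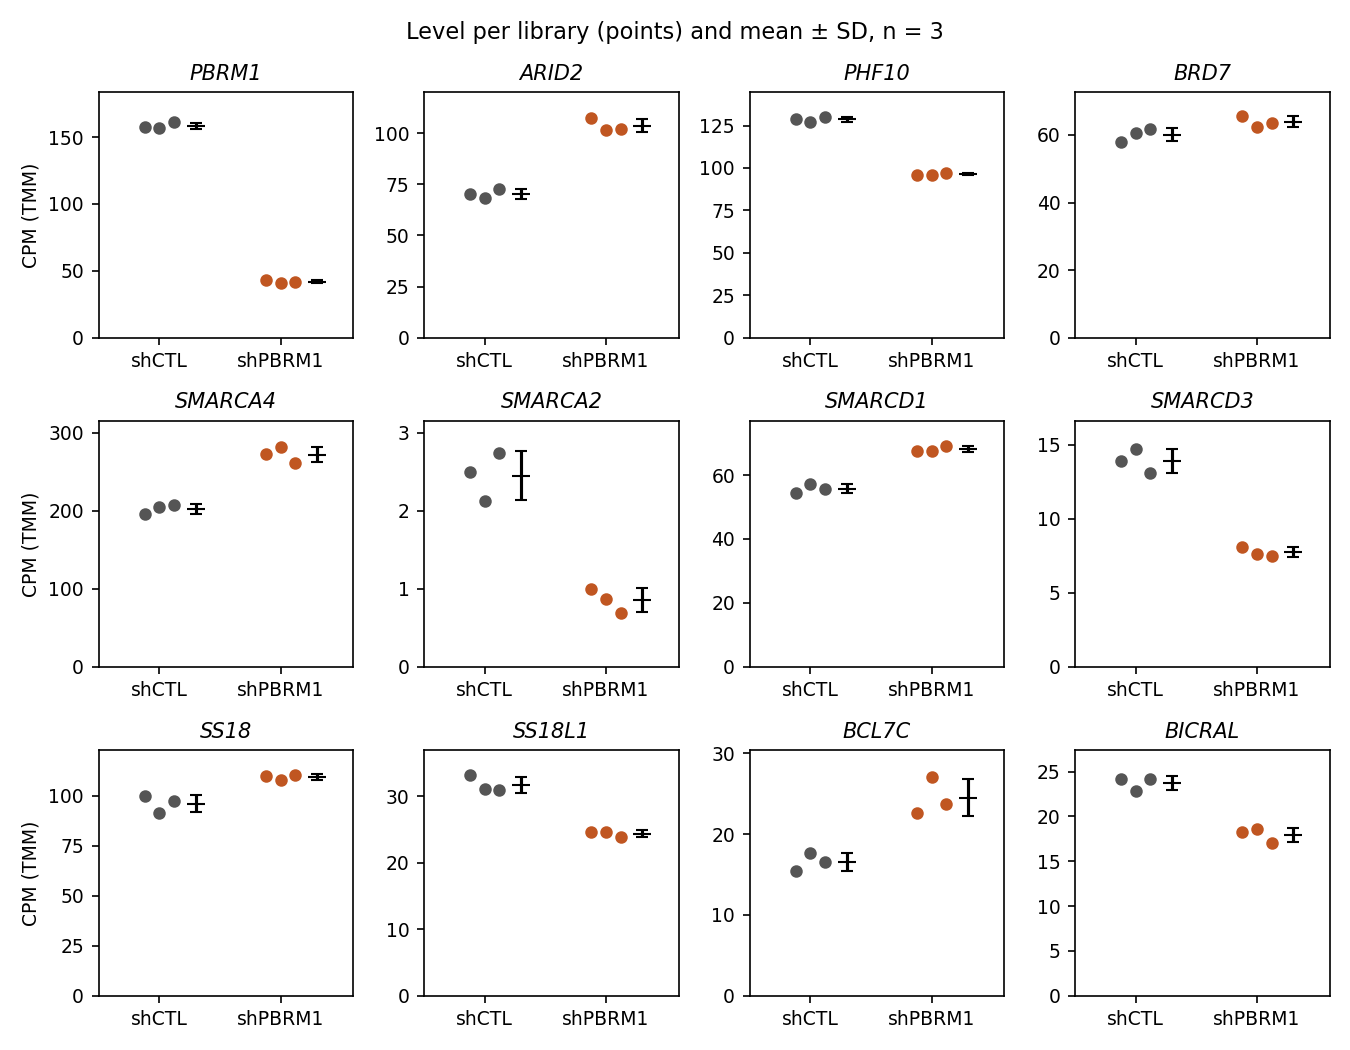
Level of 12 subunit genes in each library, in CPM normalized by TMM, with the 3 shCTL libraries in gray, the 3 shPBRM1 libraries in orange, and the mean ± SD beside them; each axis starts at 0. PBRM1, PHF10, SMARCA2, SMARCD3, SS18L1 and BICRAL are lower in every shPBRM1 library than in any shCTL library, and the other 6 genes are higher, BRD7 by the smallest margin.

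The BAF-only subunits changed little. ARID1A (the DNA-binding subunit most often mutated across cancers) went from 364.5, 353.8 and 373.5 CPM to 397.4, 400.1 and 396.6 CPM, a log2FC of 0.13 (SE 0.023, adjusted p = 6.14e-03). This rise was lost when library size alone was used for scaling (log2FC 0.08) and when shCTL replicate 2 was left out (0.11). Its paralogue ARID1B had 165.9 ± 2.49 CPM in shCTL and 162.6 ± 2.08 CPM in shPBRM1 (SD, n = 3), with overlapping groups and a 95% confidence interval of -0.10 to 0.04 for the log2FC. The fit corrected for GC content and length put ARID1B slightly higher instead, at 0.07. DPF2 (the widely expressed PHD-finger subunit of BAF) fell from 56.3, 57.1 and 57.1 CPM to 46.7, 47.5 and 44.9 CPM. The log2FC of -0.29 (SE 0.025, adjusted p = 1.46e-06) left 81.6% of the control level.

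The related DPF genes were not called. DPF3, a form of the subunit known from heart and muscle, had 22.9 ± 1.79 CPM in shCTL and 24.9 ± 0.804 CPM in shPBRM1, and DPF1, known from neurons, had 10.5 ± 0.800 and 10.4 ± 0.838 CPM (SD, n = 3 each). The DPF3 values of the groups did not overlap, those of DPF1 did, and the 95% confidence intervals of the log2FC were -0.01 to 0.26 and -0.20 to 0.16. The zinc finger subunits of lymphoid and neural cells were near the floor of detection. BCL11A had at most 4 counts and BCL11B at most 10 counts in any library, and neither was tested.

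Of the ncBAF-only subunits, BRD9 was higher, BICRAL was lower and BICRA was not called. BRD9 (the bromodomain subunit of ncBAF) had 54.7, 54.6 and 54.3 CPM in shCTL and 59.8, 63.2 and 60.0 CPM in shPBRM1 (log2FC 0.16, SE 0.026, adjusted p = 1.14e-03). Other genes share 4.2% of the exon bases of BRD9 on either strand. Among them, TRIP13 on the opposite strand rose by a log2FC of 0.97, and its part in the level of BRD9 was not tested. BICRAL, the paralogue that ncBAF can carry in place of BICRA, had 24.2, 22.9 and 24.2 CPM in shCTL and 18.2, 18.6 and 17.1 CPM in shPBRM1. That is 75.6% of the control level and a log2FC of -0.41 (SE 0.046, adjusted p = 5.51e-06). BICRA was at 15.1 ± 0.205 CPM in shCTL and 14.8 ± 1.92 CPM in shPBRM1 (SD, n = 3). The shPBRM1 libraries scattered around the shCTL values (95% confidence interval of the log2FC -0.20 to 0.14), and the fit corrected for GC content and length put BICRA higher, at 0.24.

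The catalytic ATPases moved in opposite directions. SMARCA4 (BRG1), on chromosome 19 from 10960825 to 11079426, rose from 195.5, 204.3 and 207.4 CPM to 272.5, 281.5 and 261.4 CPM. Every shPBRM1 library lay above every shCTL library, at 134% of the control level (log2FC 0.42, SE 0.040, adjusted p = 1.95e-09). SMARCA2 (BRM), on chromosome 9 from 1980290 to 2193624, was scarce already in shCTL, with 93, 103 and 138 counts, and had 60, 34 and 44 counts in shPBRM1. Scaled to the libraries, these were 2.49, 2.12 and 2.74 CPM against 0.9995, 0.874 and 0.690 CPM. The groups did not overlap, and the shPBRM1 mean was 34.9% of the shCTL mean. The change was -1.52 on the log2 scale (SE 0.18, adjusted p = 6.33e-07), the largest fall of a subunit gene after that of PBRM1 and at the 5.57th percentile of all tested genes. It lay between -1.66 and -1.37 when any 1 library was omitted. Per kilobase of its principal transcript, SMARCA4 was 82.8 times as abundant as SMARCA2 in shCTL and 311 times in shPBRM1.

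The study concerns interferon (IFN) signaling, and the promoters of the subunit genes were therefore searched for IFN response motifs. RefSeq start sites gave 47 promoter windows (250 bases before to 50 after a start, GRCh38.p14) for 26 of the 30 genes; ARID2, ACTL6A, SMARCC1 and SMARCC2 had no entry. The core motif of IFN-stimulated response elements, GAAA followed by any 2 bases and again GAAA, searched on both strands, was found in 2 of these windows, compared with 3.57% of 35116 windows of all genes. One is an internal start of SMARCA2 and the other is the start of SMARCB1, and both are shown with the motif in capitals. The SMARCA2 window is chr9:2157412-2157711 on the + strand, and the SMARCB1 window is chr22:23786716-23787015 on the + strand.
SMARCA2: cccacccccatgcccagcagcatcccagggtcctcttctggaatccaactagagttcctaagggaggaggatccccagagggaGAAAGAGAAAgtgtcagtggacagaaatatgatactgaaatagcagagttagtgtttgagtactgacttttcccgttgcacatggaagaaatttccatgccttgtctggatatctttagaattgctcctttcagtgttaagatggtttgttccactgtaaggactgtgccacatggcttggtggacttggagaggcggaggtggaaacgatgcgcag
SMARCB1: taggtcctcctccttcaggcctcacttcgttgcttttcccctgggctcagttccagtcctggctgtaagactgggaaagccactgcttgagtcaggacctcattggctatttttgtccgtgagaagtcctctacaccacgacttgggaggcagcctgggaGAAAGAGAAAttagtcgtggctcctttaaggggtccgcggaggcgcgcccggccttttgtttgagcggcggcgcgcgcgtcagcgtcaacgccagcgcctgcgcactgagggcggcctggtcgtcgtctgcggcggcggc
The motif begins 167 bases before the start in SMARCA2 and 90 bases before it in SMARCB1, with the same letters in both. SMARCA2 fell, whereas SMARCB1 was not called, and whether the motif has a part in either level was not tested. Counts per gene do not show which start of SMARCA2 was in use. The motif of STAT binding, TTCNNNGAA, was found in 2 windows, of BCL11A and BICRA, compared with 7.66% of all windows. The windows of PBRM1 held neither motif. The study reported IRF1, a transcription factor of the IFN pathways, at a PBRM1 region downstream of the start, which these windows may not reach.

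The structural subunits that all forms share were higher or not called. SMARCC1, a scaffold protein on which the core is built, rose from 296.9, 300.3 and 305.8 CPM to 363.2, 389.9 and 359.3 CPM (log2FC 0.30, SE 0.039, adjusted p = 9.30e-07). SMARCD1, another core scaffold, rose from 54.3, 57.1 and 55.7 CPM to 67.6, 67.6 and 69.2 CPM (log2FC 0.29, SE 0.023, adjusted p = 4.81e-07). In both cases the groups did not overlap, at 123% and 122% of the control level. BCL7C (of a small family bound near the ATPase) rose from 15.4, 17.6 and 16.6 CPM to 22.7, 27.1 and 23.8 CPM, the largest proportional rise of the shared subunits at 148% of the control level. Its log2FC was 0.56 (SE 0.095, adjusted p = 4.56e-07). Its family members BCL7B (28.96 ± 0.282 and 27.8 ± 1.78 CPM in shCTL and shPBRM1; SD, n = 3) and BCL7A (14.4 ± 0.990 and 15.9 ± 0.391 CPM) overlapped between the groups and were not called. BCL7A was called when shCTL replicate 3 was left out (log2FC 0.19).

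ACTL6A, the actin-related subunit of dividing cells, had 73.2, 70.8 and 72.7 CPM in shCTL and 75.5, 75.2 and 77.3 CPM in shPBRM1. The groups did not overlap, but the difference was small (log2FC 0.07, 95% confidence interval 0.00 to 0.15, adjusted p = 6.62e-02). It passed the threshold when shPBRM1 replicate 2 was left out (0.09). ACTL6B, the form that replaces ACTL6A in neurons, had at most 2 counts in any library and was not tested. ACTB, which encodes the actin that completes this module and was not on the list, rose by a log2FC of 0.74 (SE 0.058, adjusted p = 1.26e-15).

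Of the subunits common to BAF and PBAF, SMARCD3 was lower, SMARCD2 and SMARCE1 were higher, and SMARCB1 and SMARCC2 were not called. SMARCD3, the paralogue of SMARCD1 known from heart and muscle, on chromosome 7 from 151238764 to 151277896, fell from 13.9, 14.7 and 13.1 CPM to 8.11, 7.61 and 7.48 CPM. Of the control level, 55.6% remained (log2FC -0.85, SE 0.060, adjusted p = 3.34e-09). The gene CHPF2 overlaps it on the opposite strand and moved the other way, with a log2FC of 0.38. SMARCD2, the paralogue known from blood cells, rose from 25.1, 24.4 and 22.6 CPM to 28.2, 30.0 and 28.7 CPM (log2FC 0.27, SE 0.051, adjusted p = 3.73e-04).

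SMARCB1 (the tumor suppressor lost in rhabdoid tumors) stood at 49.1 ± 3.52 CPM in shCTL and 50.3 ± 0.657 CPM in shPBRM1, and SMARCC2, the paralogue of SMARCC1, at 143.6 ± 5.08 and 148.8 ± 6.46 CPM (SD, n = 3 each). Both overlapped between the groups, with confidence intervals of -0.07 to 0.13 and -0.03 to 0.13 for the log2FC. SMARCE1, an HMG-box subunit of the core, had 93, 117 and 122 counts in shCTL and 225, 125 and 190 counts in shPBRM1. That is 2.49, 2.41 and 2.42 CPM against 3.75, 3.21 and 2.98 CPM (log2FC 0.44, SE 0.097, adjusted p = 9.09e-03), and the call was lost when shPBRM1 replicate 1 was left out (0.35). In the GENCODE v29 annotation, 70.5% of the coding bases of SMARCE1 also belong to AC073508.2, a protein-coding gene on the same strand that is not a row of the table. How reads in 2 genes were counted is not given in the sources used here, and the part of this overlap in the level of SMARCE1 was not tested. No row named as a SMARCE1 pseudogene had more than 10 counts.

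SS18 and SS18L1, paralogues found in BAF and ncBAF, moved in opposite directions. SS18 (the gene fused in synovial sarcoma) rose from 99.7, 91.3 and 97.2 CPM to 109.8, 107.9 and 110.6 CPM (log2FC 0.19, SE 0.039, adjusted p = 6.34e-05). SS18L1, the form known from neurons, fell from 33.1, 31.1 and 30.9 CPM to 24.6, 24.7 and 23.9 CPM (log2FC -0.38, SE 0.036, adjusted p = 2.84e-06). Neither pair of groups overlapped.

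The balance between related subunits was read as the log2 ratio of their CPM within each library, which does not depend on the scaling between libraries. The ratios were not rerun with the correction for GC content and length. That correction moved the log2FC of BICRA from -0.03 to 0.24 and that of BICRAL from -0.41 to -0.42. Of 12 pairs examined, the 3 shPBRM1 ratios lay apart from the 3 shCTL ratios in 9, where 68.3% of single genes did so on their own. In 10 pairs, the difference had the same direction in all 3 same-numbered pairs of libraries. The share of ratios of other genes that did either was not computed. In an exact permutation test (two-sided) each of the 9 pairs that lay apart had p = 0.1. This is the smallest value that 3 libraries against 3 allow, and it was 0.133 after adjustment over the 12 pairs. For SMARCA4/SMARCA2 the ratio was 6.27, 6.56 and 6.22 in shCTL and 8.03, 8.27 and 8.48 in shPBRM1, so that the balance shifted by 1.91, or 3.75-fold, toward SMARCA4. For SMARCD1/SMARCD3 it was 1.96, 1.95 and 2.08 against 3.05, 3.15 and 3.20, a shift of 1.13. The shift for SS18/SS18L1 was 0.57. In each of these 3 pairs the gene that was already the more abundant in shCTL gained, per kilobase of either the principal transcript or of all exons. The more abundant gene also gained in SMARCC1/SMARCC2 and ARID1A/ARID1B. In BCL7B/BCL7C, BICRA/BICRAL, DPF2/PHF10 and PBRM1/ARID2, the last with the targeted gene, the less abundant gene gained instead.

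Smaller shifts were found toward BICRA over BICRAL (0.37), toward SMARCC1 over SMARCC2 (0.25) and toward ARID1A over ARID1B (0.16). The BCL7B/BCL7C ratio shifted by -0.63, toward the less abundant BCL7C. The BCL7B/BCL7A ratio shifted by -0.20 and fell in all 3 same-numbered pairs, although the groups overlapped. The SMARCD1/SMARCD2 ratio was 1.21 ± 0.092 in shCTL and 1.23 ± 0.054 in shPBRM1 (SD, n = 3), and the groups overlapped. Within PBAF, PBRM1/ARID2 went from 1.17 ± 0.027 to -1.30 ± 0.014 (SD, n = 3), the largest shift of the 12 pairs at -2.47, which contains the targeted gene. PBRM1 was 3.84 times as abundant as ARID2 per kilobase of principal transcript in shCTL and 0.691 times in shPBRM1. The bromodomain subunits of PBAF and ncBAF, BRD7/BRD9, had ratios of 0.08, 0.15 and 0.19 in shCTL and 0.14, -0.02 and 0.09 in shPBRM1, which overlapped. The PHD-finger subunits of BAF and PBAF, DPF2/PHF10, fell together, with a shift of only 0.12 between them.

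**Figure D3:**
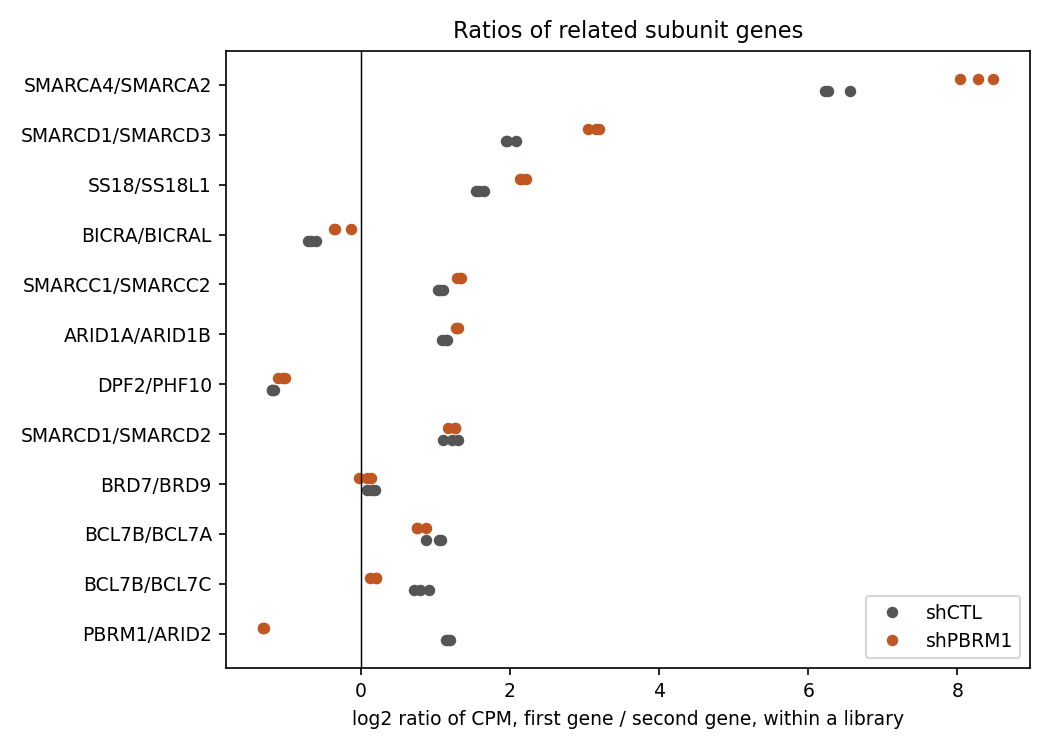
Log2 ratio of the CPM of the first gene to the second gene in each library, for 12 pairs of related subunit genes ordered by the size and direction of their shift. Gray points are the 3 shCTL and orange points the 3 shPBRM1 libraries; SMARCA4/SMARCA2 lies farthest to the right and moves by 1.91, PBRM1/ARID2 crosses 0, and 3 pairs overlap.

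Levels were then summed over the genes of each class, as CPM per kilobase of principal transcript. The 4 PBAF-only genes summed to 125 ± 1.59 in shCTL and 88.1 ± 0.900 in shPBRM1 (SD, n = 3), or 70.3% of the control level. The 7 BAF-only genes summed to 110.0 ± 2.18 and 112 ± 0.458, and the 3 ncBAF-only genes to 31.5 ± 0.168 and 33.6 ± 1.30. The 16 shared genes summed to 261 ± 2.36 and 297 ± 7.29, or 114% of the control level. The PBAF-only sum holds the targeted gene, and without PBRM1 it was 94.1 ± 1.15 and 79.8 ± 0.667, or 84.9% of the control level. That remaining difference rests on the length used, since the log2 ratio without PBRM1 was -0.24 per kilobase of principal transcript, -0.11 with all exon bases and 0.03 with no division by length. The direction of the small ncBAF-only difference also turned when all exon bases were used as the length. These sums are of transcripts and say nothing of assembled complexes.

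**Figure D4:**
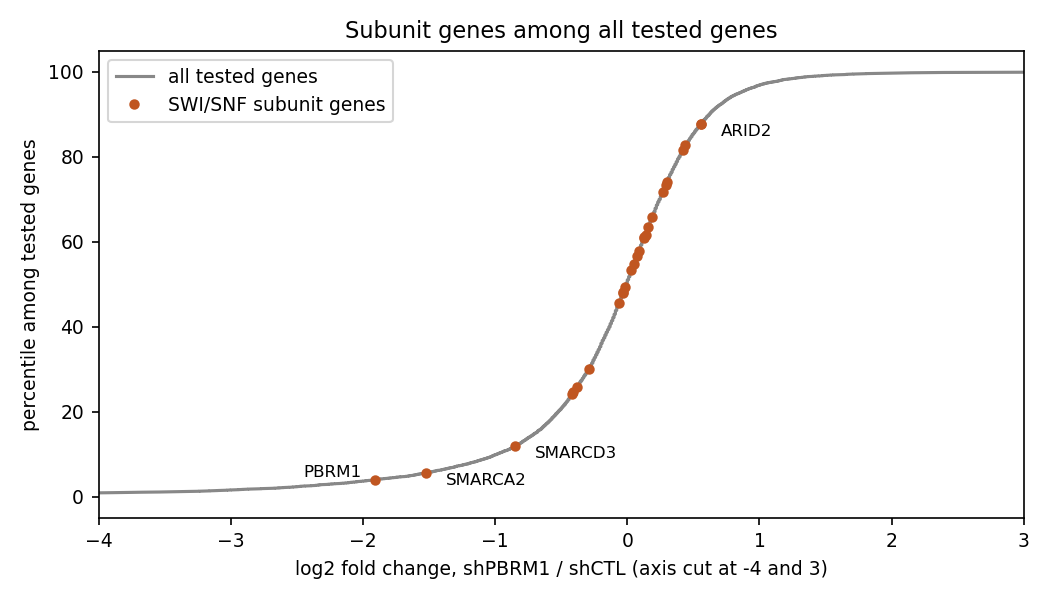
Percentile among the 15450 tested genes (vertical axis) against log2FC in shPBRM1 relative to shCTL (horizontal axis, cut at both ends), for all tested genes as a gray line and the 27 subunit genes as orange points. Most subunit genes lie in the steep middle of the curve, and PBRM1 (3.89), SMARCA2 (5.57) and SMARCD3 (11.9) lie in its lower tail.

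The other ATP-dependent remodelers also moved in both directions. Of 47 tested genes of the ISWI, CHD/NuRD and INO80/SRCAP/TIP60 families, 13 were lower and 17 higher at an adjusted p under 0.05, or 63.8% against 64.7% of all tested genes, with a median log2FC of 0.05. None was lower and 3 were higher past 1.5-fold, against 16.3% lower and 9.39% higher of all genes. These were RBBP7 (log2FC 0.67, SE 0.030, adjusted p = 1.48e-13) and HDAC1 (0.64, SE 0.018, adjusted p = 1.34e-13), histone-binding and deacetylase subunits of NuRD, and RUVBL2 (0.61, SE 0.023, adjusted p = 2.92e-13), a helicase-like subunit of INO80. A difference between the SWI/SNF genes and these families was not tested.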

How the data were processed

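Poly(A) RNA-seq was analyzed for 3 shCTL and 3 shPBRM1 libraries of BT-549 cells, grouped by sample title. The authors' deposited table holds raw counts, a row per gene symbol. The submitters' processing notes name CASAVA 1.8.2, STAR 2.7.9a, featureCounts, DESeq2 1.24.0 and the build GRCh38.p7, and the kit was a stranded mRNA kit; the annotation and the counting options are not given in the sources used here. The control columns of the table were matched to the control titles by their final number, as the only columns without shPBRM1 in their names.

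Counts were analyzed with edgeR 4.0.16 in R 4.3.3. Genes with low counts were removed by filterByExpr, libraries were scaled by TMM, and the 15450 remaining genes were tested by the quasi-likelihood F-test. P-values were adjusted over all of them by Benjamini and Hochberg's method. DESeq2 1.42.0 and other settings were tried as alternatives. Standard errors come from log2 CPM with 2 counts added, and confidence intervals are at the 95% level. Positions and lengths are those of GENCODE v29 on GRCh38 and were matched by symbol. The annotation of the authors may differ from it.

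All 30 given genes were named. The members and gene lists were chosen with earlier results of these data known. Across 5622 genes, deviations from the group means correlated at 0.734, 0.593 and 0.419 between libraries with the same replicate number in the titles. Between libraries with different numbers the correlations ran from -0.671 to 0.464, the highest for shCTL replicate 2 with shPBRM1 replicate 3. The replicate number was also fitted as a block. Libraries of a group differed by more than sampling noise (chi-square per degree of freedom of at least 4.66). This value was highest, at 19.54 and 22.60, for the pairs that held shPBRM1 replicate 1. In simulated counts with 200 genes changed 4-fold, edgeR recovered 198 among 15378 tested, with 6 false calls. A 4-fold change is larger than that of any subunit gene here, and far more genes, 64.7%, were called in the data. Recovery of smaller changes was not tested.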

Additional observations from a re-analysis of the deposited data

How the results depend on the processing

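PBRM1 stayed between -1.96 and -1.89 on the log2 scale under the alternatives run, with -1.92 under the replicate block. Of the 17 called subunit genes, 9 kept their call under every alternative and none changed direction. The other 8 lost it under 1 or more, and all of these lost it when a fold change of at least 1.2 was tested with glmTreat, which left 3 higher and 6 lower genes (against 17.3% and 21.8% of all tested genes). The replicate block gave 11 higher and 7 lower, adding BRD7, and changed no other call. The block with GC content and gene length offsets, chosen after seeing the data, gave 17 higher genes (against 32.7% of all tested genes), among them DPF3, SMARCB1 and SMARCC2, and a median log2 fold change of 0.15, against 0.03 with library size only. The medians of all tested genes were -0.002 and -0.056 in these fits and -0.008 as reported. The fit with offsets turned ARID1B to 0.07, DPF1 to 0.14, BICRA to 0.24 and BCL7B to 0.02, for which the cause was not tested. Library size only turned SMARCB1 from 0.03 to -0.02, a step like that of the median of all genes.

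With each library left out in turn, 9 to 12 genes were higher and 7 lower. DPF1 then ranged from -0.08 to 0.05, BICRA from -0.13 to 0.04, SMARCB1 from -0.01 to 0.09 and the SMARCD1/SMARCD2 shift from -0.03 to 0.07. The log2 ratio of the summed levels without division by length was -0.45 for PBAF-only, 0.05 for BAF-only, 0.01 for ncBAF-only and 0.22 for shared genes, against -0.51, 0.02, 0.09 and 0.18 as reported. With all exon bases as the length it was -0.47 for PBAF-only and -0.03 for ncBAF-only genes. Without PBRM1 the PBAF-only value was -0.24 per kilobase of principal transcript, -0.11 with all exon bases and 0.03 with no division by length. Low counts limit SMARCA2 and SMARCE1, with 34 to 225 counts per library, and leave BCL11A, BCL11B and ACTL6B untested. For SMARCE1, the part of the overlap with AC073508.2 in its low counts was not tested.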
